A study of Mus musculus with 8 samples.

Results

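Control mouse embryos were compared at 2 stages of preimplantation development, the morula and the blastocyst, using the 4 libraries labelled NC of a series of 8 (the other 4 are labelled Snf2h KD, after another name of the chromatin remodeler gene Smarca5). Each stage had 2 libraries, and each library was made from polyadenylated RNA of a pool of 20 embryos. The series names embryonic days 3.75 and 4.25 without assigning them to a stage, and the sources used here do not state the strain, the culture of the embryos, how the KD was made or what the NC embryos received. The 4 NC columns were joined by Ensembl gene ID, and 12875 genes with a mean of at least 10 over the 4 NC and KD columns of both stage tables were tested, of 21517 genes listed in either table. Another 776 genes reached that mean in the blastocyst table only and 529 in the morula table only.

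A morula is a compact ball of cells whose outer cells become polarised. In the blastocyst those outer cells form the trophectoderm, a sealed epithelium that pumps fluid into a cavity and later builds the placenta, and the inner cells sort into epiblast, the source of the fetus, and primitive endoderm, the source of the yolk sac lining. Outer cells let YAP reach the nucleus, where it works with TEAD4 to turn on Cdx2 and Gata3, while FGF signalling inside the embryo divides epiblast from primitive endoderm.

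Values are the authors' normalized abundances, divided for each library by a factor that brings the middle of the gene ratios to the same level. Pairs of values are given as morula libraries 1 and 2, then blastocyst libraries 1 and 2. A gene "rose" or "fell" where limma on log2(value + 1), adjusted over all 12875 genes by Benjamini-Hochberg, gave an adjusted p under 0.05, and log2 changes are blastocyst minus morula on that scale, which understates changes of genes with low values. The authors scaled each stage's table on its own, so stage and table cannot be told apart, and a scaling of single genes within a table would not be removed by the division. Nothing in the labels says that the 2 libraries of a group came from separate collections, so a p-value reflects the spread of these particular pools, and that spread may be technical. Each pool is a whole-embryo mixture, so a larger number of cells of a type and more RNA per cell cannot be told apart.

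The 2 morula libraries differed from each other in a way that ran along the stage axis. Across genes, log2 values correlated at r = 0.965 between the morula libraries and at 0.972 between the blastocyst libraries. Morula library 1 correlated with the blastocyst libraries at 0.941 and 0.933, morula library 2 at 0.907 and 0.895. Morula library 1 lay nearer the blastocyst mean than morula library 2 did for 1153 of the 1524 genes that rose and for 1275 of the 1485 that fell, and its part in single results was not tested. Markers of other cells were scarce. Of 16 cumulus and granulosa markers, 6 had no value above 0 in any of the 4 libraries, among them Fshr, Cyp19a1, Has2 and Ptx3, and their summed level was 422 and 592 in morulae and 339 and 391 in blastocysts, most of it Amhr2 in morulae and Inhbb with Amhr2 and Col1a1 in blastocysts. The 12 blood markers summed to 669, 1179, 854 and 446, most of it Cd68, while the globin genes Hbb-bs and Hba-a1 reached 76.5 and 53.1 in blastocyst library 2 and were under 10 in the other libraries. The 10 oviduct and uterine markers summed to 104 and 83.5 in morulae and 651 and 669 in blastocysts, most of it the secreted protease inhibitor gene Wfdc2, with no value above 0 for Foxj1 and Ltf. The part of such cells in the results was not tested.

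Between the stages 1524 genes rose (11.8% of those tested) and 1485 fell (11.5%), of which 963 rose and 703 fell at least 2-fold, and the median log2 change of all genes tested was 0.00. The libraries of the stages did not overlap for any of the 3009, but with 2 libraries a stage that was common, with 4325 genes higher and 4356 lower without overlap among all 12875. The balance of the directions depends on how the tables are set level. Without rescaling the median gene stood 0.22 higher in blastocysts, and 2553 genes rose and 898 fell. With equal column sums the shift was 0.11, with 1834 and 1159. Quantile normalization gave 1475 and 1473. Counts also depended on the spread that limma assumes, since without the mean-variance trend 164 genes rose and 77 fell. Leaving out 1 library gave 2109 and 1981 without morula library 1, 1141 and 863 without morula library 2, 418 and 591 without blastocyst library 1, and 293 and 376 without blastocyst library 2. Each of the 3009 genes kept its sign under all of these settings. The trend does not enter the log2 change, so leaving it out cannot turn a sign. Without overlap between the stages, leaving out a library could hardly do so either. The counts of each gene list below are to be read against the 11.8% and 11.5% of all genes tested.

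**Figure D1:**
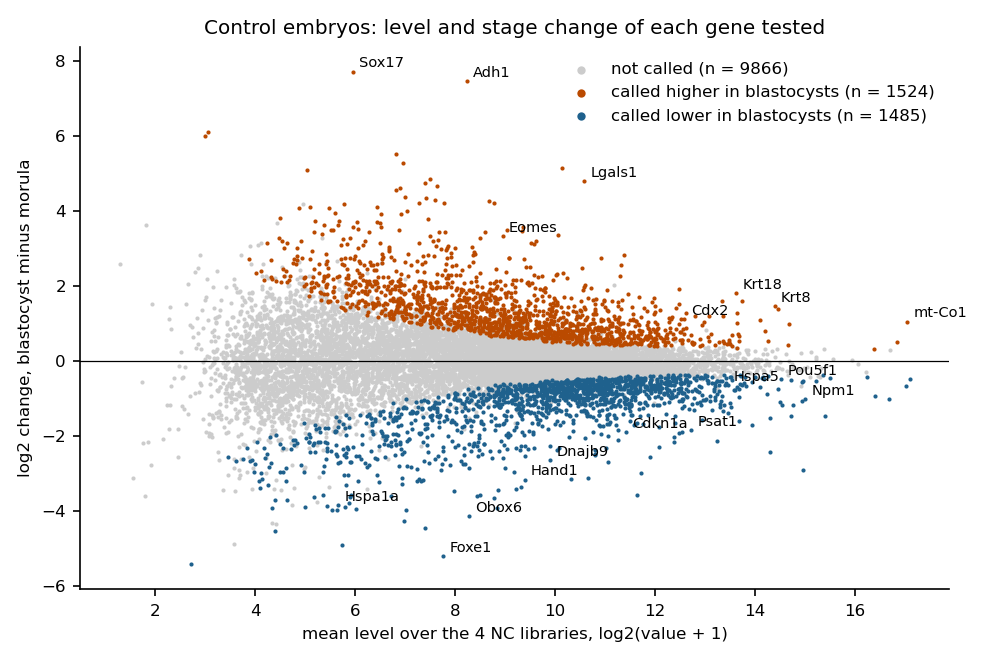
Log2 change between the stages (vertical) against mean log2 level over the 4 NC libraries (horizontal) for each of the 12875 genes tested, with 1524 genes that rose in orange and 1485 that fell in blue. The cloud is centred on 0, and the smallest change that passes the test is larger at low levels.

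The stage labels were checked against genes that mark the blastocyst. Krt8 and Krt18, Cdx2 and Gata3 rose, and the endocytic adaptor gene Dab2 rose from 4468 and 4279.6 to 7279 and 6236 (adjusted p = 0.014). The water channel gene Aqp3 stood at 10082 and 15310.5 in morulae and 9093 and 6298 in blastocysts, the endoderm factor gene Gata6 at 9662 and 10605 in morulae and 8193 and 9428 in blastocysts and the FGF ligand gene Fgf4 at 219 and 338 in morulae and 273 and 259 in blastocysts, and these 3 did not pass the test (adjusted p = 0.0677, 0.25 and 0.95). Xist was not analysed here.

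Most of the tested transcription factors of the trophectoderm rose. Of 18 tested factors of this lineage (of 20 listed), 11 rose (61.1%, against 11.8% of all genes) and 2 fell (11.1%, against 11.5%). The median log2 change was 1.05 against 0.00 over all genes. Cdx2, the homeobox gene that fixes trophectoderm identity, rose from 5378 and 3247 to 9312 and 8911, a log2 change of 1.12 ± 0.22 (SE, adjusted p = 0.014). Both blastocyst libraries lay above both morula libraries, and morula library 1 was the nearer of the latter. Gata3, which acts beside Cdx2, rose from 4029 and 2972 to 8090.4 and 7407 (2.21-fold, adjusted p = 0.00536). Eomes, needed for trophoblast stem cells, rose from 235 and 102 to 1255 and 1983, a log2 change of 3.34 ± 0.41 (adjusted p = 0.00364). Tfap2a, which encodes an AP-2 factor, rose from 239 and 103 to 1449 and 2178 (log2 3.49, adjusted p = 0.00305), and Gata2, a regulator of trophoblast giant cell genes, rose from 105 and 9.65 to 748 and 1281 (log2 4.87 ± 0.94, adjusted p = 0.0134). In all of these both blastocyst libraries were higher. Id2, an inhibitor of helix-loop-helix factors and an early mark of outer cells, rose from 304 and 222 to 2182 and 2329.9 with little spread between libraries (log2 3.11 ± 0.20, adjusted p = 0.0016).

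Other factors of the lineage did not rise. Hand1, which drives giant cell differentiation, fell from 1230.2 and 3306 to 296 and 169, a log2 change of -3.16 ± 0.47 (adjusted p = 0.00617). The level of Hand1 in morula library 2 was well above that in morula library 1, and both exceeded the blastocyst libraries. Tead4, the DNA-binding partner of YAP, stood at 3329 and 3166 in morulae and 3207 and 3065 in blastocysts, with overlapping libraries and a log2 change of -0.05 ± 0.12 that was positive under the other 3 scalings. Dlx3 and Esx1, homeobox genes of the placenta that passed the filter in the morula table only, stood at 4.93 and 31.4 in morulae and 3.74 and 0.748 in blastocysts and at 4.07 and 21.8 in morulae and 1.27 and 7.48 in blastocysts. With blastocyst library 2 left out, 4 of the factors rose and 1 fell, against 6 and 1 with library 1 left out. Without the mean-variance trend 1 rose and 0 fell. The call of Cdx2 was lost in each of these 3 settings, and its adjusted p over all settings ran from 0.000703 to 0.0951.

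Surface and secreted genes of trophoblast gave the largest share of rises of any list with at least 10 tested members. Of 20 tested, 15 rose (75%, against 11.8% of all genes) and 2 fell (10%, against 11.5%), with a median log2 change of 1.44. Ndrg1, a stress-responsive gene of the placenta, rose from 354 and 308 to 3944 and 2989, a 10.5-fold difference between means (log2 3.37 ± 0.19, adjusted p = 0.0016). Tspan8, a tetraspanin of the cell surface, rose from 119.8 and 72.4 to 1432 and 2273 (log2 4.26, adjusted p = 0.0016). Peg10, an imprinted gene derived from a retrotransposon and needed by the placenta, rose from 23.8 and 30.4 to 461 and 730.4 (log2 4.38, adjusted p = 0.0016). In each of these 3 genes the spread within a stage was small beside the distance between stages. The Wnt ligand genes Wnt7b and Wnt6 both rose, Wnt7b from 916 and 799 to 3312 and 3299 and Wnt6 from 29.5 and 30.9 to 403 and 549.8. Lgals1, which encodes a galectin that binds cell surface sugars, rose from 537 and 155 to 8251 and 7882, 23.3-fold between means (log2 4.80 ± 0.49, adjusted p = 0.00228). The list still gave 10 rises and 1 fall without blastocyst library 2, and 7 and 0 without the mean-variance trend.

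The keratin pair of simple epithelia rose in step. Krt8 and Krt18, which pair into the intermediate filaments of the trophectoderm and lie beside each other on chromosome 15 (chr15:101996698-102004482 and chr15:102028180-102032027 in mm10), changed by similar amounts. Krt8 went from 14104 and 11911 to 36073 and 35823, with group means of 13008 ± 1551 in morulae and 35948 ± 177 in blastocysts (SD, n = 2), a log2 change of 1.47 ± 0.11 (adjusted p = 0.0016). Krt18 went from 6874 and 6587 to 23005 and 24194 and changed by 1.81 ± 0.10 (adjusted p = 0.0016). Krt7, a further simple keratin, rose from 110.5 and 97.5 to 492 and 473 (adjusted p = 0.00286). Of 14 tested keratin and desmosome genes 6 rose and 0 fell (median log2 0.86), among them the desmosomal cadherin gene Dsg2 (from 982 and 608 to 2792 and 3289) and the plaque gene Dsp (from 4813 and 4209 to 7775 and 8515). Removing blastocyst library 2 left 4 rises.

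**Figure D2:**
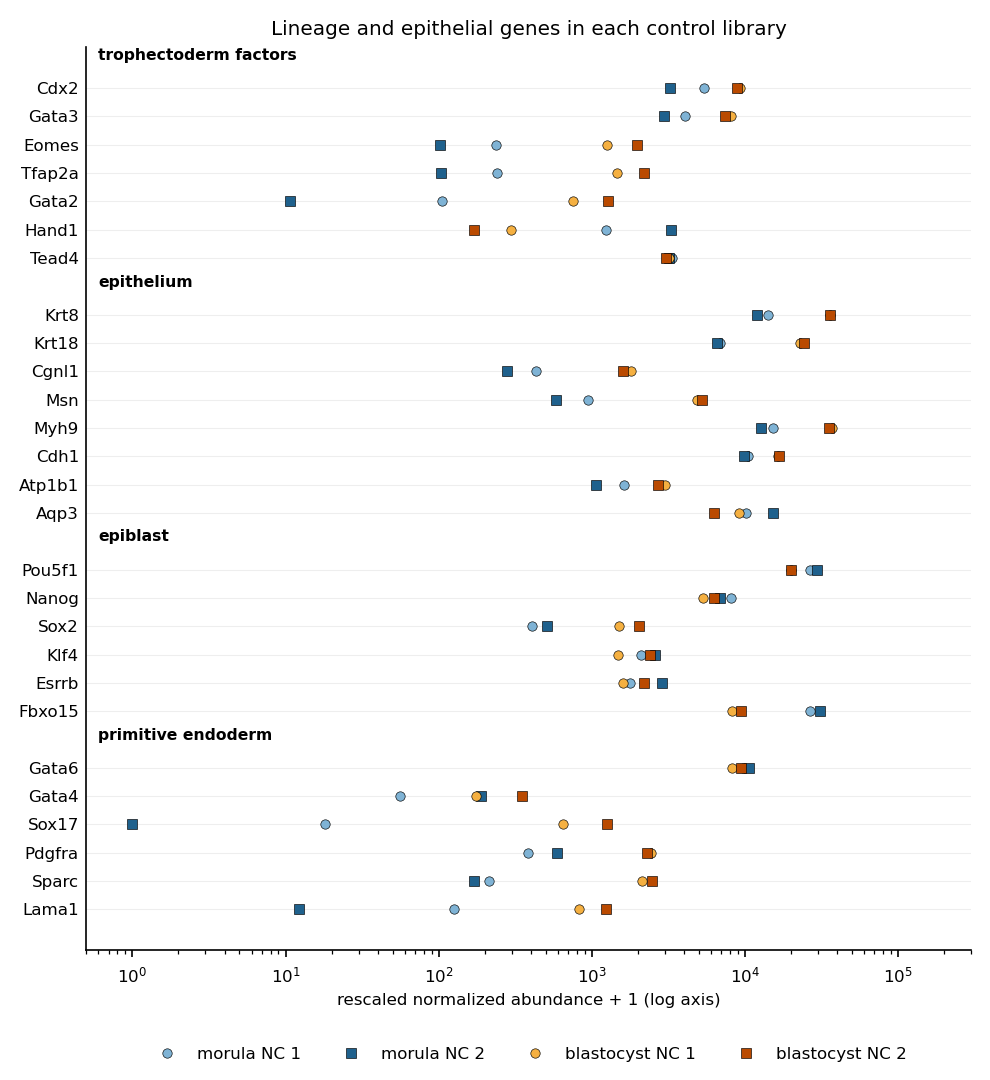
Rescaled normalized abundance + 1 on a log axis for lineage and epithelial genes (rows), with 1 point per library, blue for the morula and orange for the blastocyst libraries, circles for library 1 and squares for library 2. Eomes, Sox17, Lama1 and Gata2 differ between stages by more than a power of 10 in at least 1 pair of libraries, while Tead4, Gata6 and Nanog stay within 2-fold over all 4.

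Genes that seal and polarise the epithelium also included many rises. Of 17 tight junction genes 8 rose and 0 fell (median log2 0.60). Cgnl1, which links junctions to the actin belt, rose from 430.5 and 278 to 1802 and 1597 (log2 2.29 ± 0.23, adjusted p = 0.00227). The claudin gene Cldn3 rose from 46.0 and 81.8 to 242 and 264 (adjusted p = 0.0113). Of 26 genes of compaction and apical polarity 12 rose and 1 fell (median 0.40). Cdh1, the E-cadherin that holds the compacted morula together, rose from 10389 and 9891 to 16433 and 16769.6, a log2 change of 0.71 ± 0.10 (adjusted p = 0.0054). Msn, which ties membrane proteins to cortical actin, rose from 945 and 582 to 4850.0 and 5225 (log2 2.76, adjusted p = 0.0016), and its scaffold partner gene Slc9a3r1 rose from 2261 and 1433 to 5671 and 6162 (adjusted p = 0.00375). Myh9, the heavy chain of non-muscle myosin, rose from 15330.5 and 12626 to 37193 and 35407 (log2 1.38 ± 0.12, adjusted p = 0.00172).

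Actin cytoskeleton genes followed the same direction, with 13 of 27 rising and 0 falling (median 0.33). Lima1, which stabilises actin filaments, rose from 519 and 613 to 1742 and 1852 (log2 1.67, adjusted p = 0.00215), and the myosin heavy chain gene Myh10 rose from 9119.8 and 6776 to 21667 and 26734 (log2 1.61, adjusted p = 0.00246). In both, all blastocyst values exceeded all morula values by more than the gap between libraries of a stage. Without blastocyst library 2 the rises numbered 2 among tight junction genes, 3 among polarity genes and 4 among actin genes, against 2, 6 and 6 with library 1 left out. Without rescaling 12 tight junction genes rose.

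Transport genes for the cavity fluid were mixed. Of 14 tested, 3 rose and 1 fell (21.4% and 7.14%, against 11.8% and 11.5% of all genes, median log2 0.53). Atp1b1, the beta subunit of the sodium pump, rose from 1631 and 1062 to 3016 and 2707 (log2 1.12 ± 0.21, adjusted p = 0.0123). Slc4a2, an anion exchanger, rose from 660.0 and 577 to 1595 and 1371 (adjusted p = 0.00464), and the pump modulator gene Fxyd6 rose from 13.0 and 27.0 to 255 and 200.1 (adjusted p = 0.0047). Slc12a2, which brings sodium, potassium and chloride into the cell together, fell from 3366 and 6486 to 1326 and 1285 (log2 -1.84 ± 0.28, adjusted p = 0.00657). Among genes that reached the mean of 10 in the blastocyst table only, the water channel gene Aqp8 stood at 6.13 and 0 in morulae and 95.3 and 189 in blastocysts, so its blastocyst values were far above its morula values, but it was not in the test. There were 5 rises and 1 fall without rescaling and 2 and 1 without blastocyst library 2.

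Pluripotency genes did not move as a block. Of 25 tested epiblast and pluripotency genes 5 rose and 4 fell (20% and 16%, against 11.8% and 11.5% of all genes, median log2 -0.26). Pou5f1, which encodes OCT4, fell from 26579.9 and 29391 to 19908 and 19946, a log2 change of -0.49 ± 0.10 (adjusted p = 0.0169), while Sox2, its partner and an early mark of inner cells, rose from 407 and 506 to 1506 and 2044, a log2 change of 1.95 ± 0.21 (adjusted p = 0.00255). The libraries of the stages were apart for both genes, in opposite directions. The call of Pou5f1 was lost without rescaling, after quantile normalization, without the mean-variance trend and without either blastocyst library, and its adjusted p over all settings ran from 0.00436 to 0.126. Nanog stood at 8086 and 6818 in morulae and 5322 and 6259.9 in blastocysts and was not called (log2 -0.36 ± 0.14, adjusted p = 0.0979). Klf4 (2084 and 2574 in morulae and 1484 and 2384 in blastocysts) and Esrrb (1768 and 2862 in morulae and 1608 and 2199.9 in blastocysts), factors of naive pluripotency, had overlapping libraries.

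Fbxo15, an OCT4 target that encodes an F-box protein, fell from 26424 and 30950.2 to 8181 and 9369.9 (log2 -1.71 ± 0.13, adjusted p = 0.0016). Tdh, threonine dehydrogenase of mouse embryonic stem cells, fell from 1104 and 1863 to 436 and 538 (adjusted p = 0.00902). The chromatin-bound factor gene Utf1 rose from 1270.2 and 1347 to 2347 and 2177 (adjusted p = 0.0088) and the RNA-binding protein gene L1td1 rose from 1501 and 2165 to 3754 and 3368 (adjusted p = 0.0131). Leaving out 1 library moved the median log2 change of this list between -0.46 and -0.02. The balance of its rises and falls depended on scaling, with 8 and 2 without rescaling.

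Most of the tested primitive endoderm genes rose too. Of 19 tested, 11 rose and 2 fell (57.9% and 10.5%, against 11.8% and 11.5% of all genes, median log2 1.05). Sox17, a factor of committed endoderm at chr1:4490931-4497354, went from 17.1 and 0 to 648 and 1248, the largest change of any named gene (log2 7.73 ± 1.20, adjusted p = 0.00704), and it was listed at 0 in morula library 2. Its NC morula mean was under 10, so it entered the test through the KD morulae and would not be tested with the filter on NC columns. Pdgfra, the receptor that marks endoderm precursors, rose from 379.6 and 594 to 2438 and 2282 (log2 2.31 ± 0.23, adjusted p = 0.00215). The nuclear receptor gene Hnf4a rose from 64.1 and 65.5 to 337 and 459 (adjusted p = 0.00311). Gata6, expressed early in all inner cells, and Gata4, expressed later in endoderm, did not pass. Gata4 stood at 54.9 and 187 in morulae and 175 and 351 in blastocysts, with overlapping libraries (adjusted p = 0.164).

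Other members of the list encode matrix proteins or their chaperones. Sparc, a matrix glycoprotein, rose from 213 and 169 to 2113 and 2469.8 (log2 3.58 ± 0.20, adjusted p = 0.0016). Serpinh1, the collagen chaperone, rose from 61.3 and 40.8 to 743 and 1213 (log2 4.22 ± 0.34, adjusted p = 0.0016). Lama1, a laminin chain of the first basement membranes, rose from 126 and 11.2 to 829 and 1233 (log2 4.68 ± 0.94, adjusted p = 0.0152), and its level in morula library 1 was over 10 times that in morula library 2. Cited1, a transcriptional coactivator gene, fell from 617 and 1096 to 185 and 166 (adjusted p = 0.00487). Of this list 6 genes rose and 1 fell once blastocyst library 2 was left out, and 3 and 0 without the mean-variance trend.

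**Figure D3:**
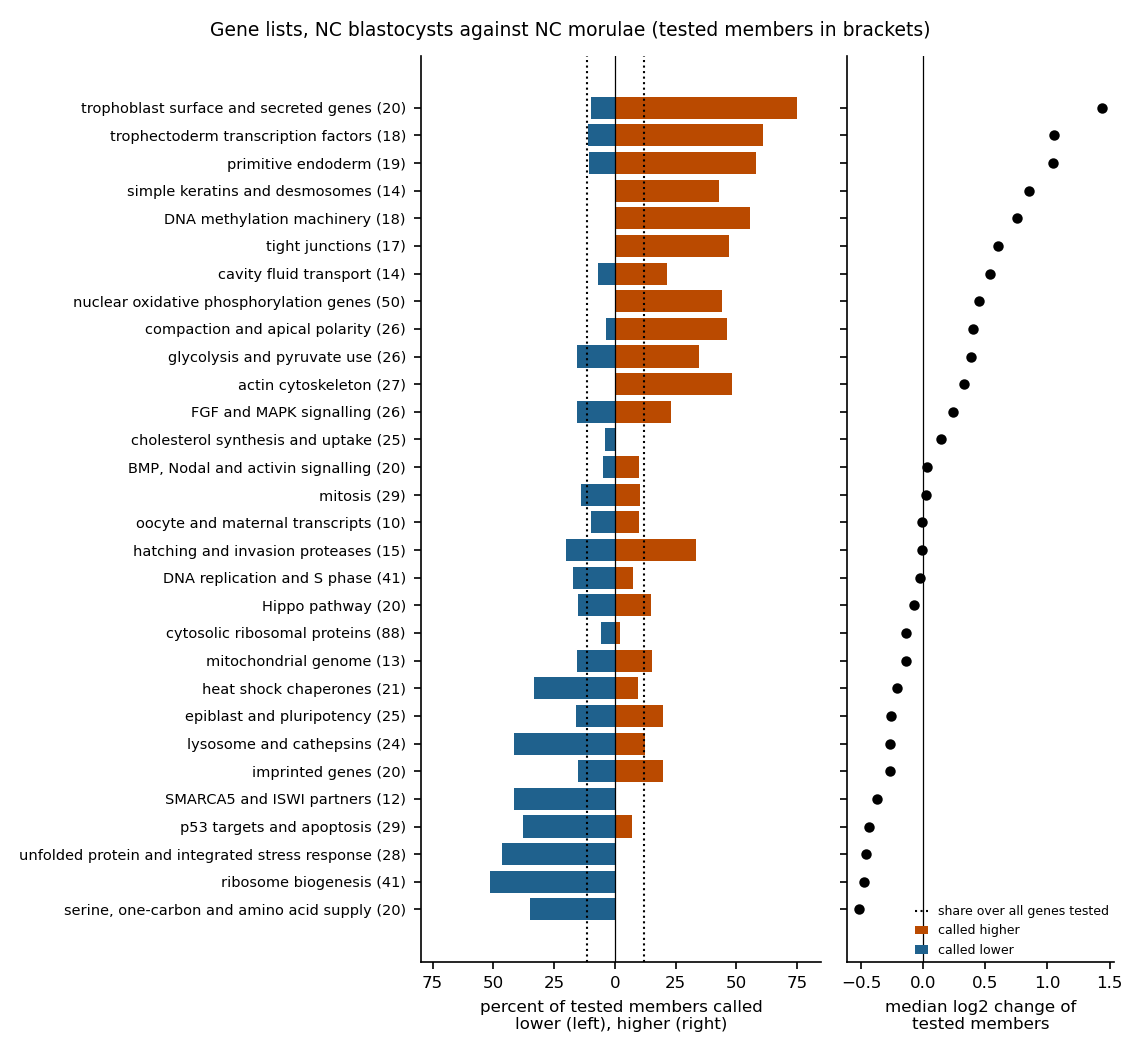
For each gene list with at least 10 tested members, the percent of tested members called lower (blue, left) and higher (orange, right), with dotted lines at the shares over all genes tested (11.5% and 11.8%), and the median log2 change on the right. Trophoblast, trophectoderm and primitive endoderm lists stand at the top, and ribosome biogenesis and serine and one-carbon lists at the bottom.

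In the Hippo pathway, which senses cell position and restrains YAP, 3 of 20 tested members rose and 3 fell, shares near those of all genes, and the median log2 change of -0.08 was 0.15 without rescaling and 0.04 with equal sums. The angiomotin relatives, which tether YAP at junctions, went apart. Amotl2 rose from 1867 and 1618 to 3101 and 3434 (adjusted p = 0.00655), and Amotl1 fell from 144 and 201 to 26.9 and 27.2 (log2 -2.61 ± 0.39, adjusted p = 0.0064). Tead2, a relative of Tead4, rose from 773 and 877 to 1887 and 1561 (adjusted p = 0.00693), and Mob1b, which activates the LATS kinases, fell from 1073 and 1543 to 633 and 537 (adjusted p = 0.0124). Only 1 gene rose and 1 fell without blastocyst library 2. The letters GGAATG, the core bound by TEAD factors, were searched on both strands of the 250 bases before each RefSeq gene start (GRCm38.p6). They were found in 4 of 32 windows of the trophectoderm, trophoblast and keratin lists (12.5%), against 10.2% of windows of the genes tested. The share was 12.6% over all genes with a window, 12% of those that rose and 11.3% of those that fell.

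FGF pathway members also differed from one another. Of 26 tested, 6 rose and 4 fell (23.1% and 15.4%, against 11.8% and 11.5% of all genes, median log2 0.24). Among ligands, Fgf3 fell from 107 and 157 to 20.8 and 28.9 (adjusted p = 0.0119) and Fgf10, a ligand outside the fixed list and among the largest changes, rose from 4.6 and 4.58 to 115 and 316 (log2 5.10 ± 0.62, adjusted p = 0.00361), while Fgf4 did not pass. Like Sox17, Fgf10 entered the test through the KD columns of the morula table. Among receptors, Fgfr1 rose from 1467 and 1737 to 2847 and 3262 (adjusted p = 0.00725) and Fgfr3 fell from 719.9 and 735 to 316 and 309 (adjusted p = 0.00655). Dusp6, the phosphatase that ERK signalling induces and that feeds back on it, rose from 87.5 and 104 to 414 and 648 (log2 2.43 ± 0.30, adjusted p = 0.00389). The exchange factor gene Sos1 fell from 3451 and 4246 to 1718 and 1599.8 (adjusted p = 0.0036). Without blastocyst library 2 the counts were 1 and 1, against 3 and 2 with library 1 left out.

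Among 20 genes of BMP, Nodal and activin signalling 2 rose and 1 fell, a share near that of all genes. Both that rose encode proteases that cut Nodal precursor, Pcsk6 (from 1869 and 2240.5 to 4188 and 4757, adjusted p = 0.0041) and Furin (from 1696 and 1914 to 4209.7 and 3182, adjusted p = 0.00807). The activin binder gene Fstl3 fell from 904 and 1633 to 645 and 518 (adjusted p = 0.0363). The ligand gene Bmp4 reached the mean of 10 in the blastocyst table only and stood at 7.91 and 2.58 in morulae and 36.6 and 237 in blastocysts, with most of that in blastocyst library 2.

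Some genes of earlier stages fell. Obox6, a homeobox gene of preimplantation embryos, fell from 968 and 1761 to 89.1 and 60.5, an 18.2-fold difference between means (log2 -4.13 ± 0.35, adjusted p = 0.00166). Two-cell-stage genes, active at the first wave of embryonic transcription, were few in the test because most were low at both stages. Of 4 tested 3 fell and 0 rose (median log2 -2.37). Tmem92 fell from 1977 and 2590.2 to 832 and 822 (adjusted p = 0.00327), and Tdpoz1, 1 of a family of near-identical copies between which reads can be split, fell from 144 and 285 to 16.2 and 50.3 (adjusted p = 0.0196). Others of the list passed the filter in 1 table only. Zfp352 stood at 2.95 and 40.4 in morulae and 1.25 and 0 in blastocysts and Usp17lb at 1.03 and 53.9 in morulae and 0 and 2.24 in blastocysts, with nearly all of the signal in morula library 2. Duxf3 went the other way and stood at 2.96 and 2.25 in morulae and 14.4 and 13.4 in blastocysts.

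Of 10 tested oocyte genes 1 rose and 1 fell (10% each, against 11.8% and 11.5% of all genes). Their median of -0.01 was 0.21 without rescaling, 0.10 with equal sums and 0.03 after quantile normalization. Padi6 and Ooep belong to the same maternal protein complex under the egg's membrane and went apart. Padi6 fell from 154 and 229 to 34.0 and 22.7 (log2 -2.72 ± 0.42, adjusted p = 0.00684), and Ooep rose from 188 and 156 to 564 and 542 (log2 1.69 ± 0.23, adjusted p = 0.00487). Zona pellucida genes were low, Zp3 at 26.5 and 52.7 in morulae and 12.4 and 14.9 in blastocysts (adjusted p = 0.134) and Zp2, above the filter in the morula table only, at 18.2 and 51.7 in morulae and 7.65 and 13.6 in blastocysts. Among the 5 preimplantation homeobox genes tested 3 fell and 0 rose. Besides Obox6 these were Cphx1 (from 87.0 and 20.2 to 0 and 0) and Cphx3 (from 304 and 947 to 179 and 113), copies on chromosome 14 whose reads can be split. Cphx1 was at 0 in both NC blastocyst libraries and entered the test through the KD blastocysts, and with the filter on NC columns 4 of the genes were tested and 2 fell. Crxos stood at 16224 and 19133 in morulae and 17853 and 18327 in blastocysts and was not called. Without morula library 2 only 1 of the two-cell-stage genes fell, and 2 of the homeobox genes did.

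Many protein-folding and stress genes fell. In the unfolded protein response, the endoplasmic reticulum raises its chaperones when folding load exceeds capacity. Of 28 tested genes of this and the integrated stress response 13 fell and 0 rose (median log2 -0.46). The master chaperone gene Hspa5 fell from 13621 and 14532 to 8436 and 9545 (log2 -0.65 ± 0.11, adjusted p = 0.00933). Its exchange factor gene Hyou1 fell from 4739 and 5928 to 2382 and 2448 (log2 -1.13 ± 0.14, adjusted p = 0.00389). Dnajb9, a cochaperone induced through XBP1, fell from 1492 and 3859 to 404 and 357 (log2 -2.66 ± 0.40, adjusted p = 0.00635). Morula library 2 was the higher of the morula libraries in all 3. Without rescaling 8 of the list fell and 1 rose, and 4 fell when either blastocyst library was left out, or 7 for morula library 2, and 0 without the mean-variance trend.

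Several of these genes share a promoter element, shown here because it is the known binding site of ATF6, a sensor of this response. The endoplasmic reticulum stress element, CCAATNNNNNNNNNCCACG, was searched on both strands of the 250 bases before each RefSeq gene start (GRCm38.p6). It was found in 8 of the 25 windows available for tested members of the list (32.0%). Over all genes tested it was in 19 of 9609 windows (0.198%), and over all genes in 33 of 27025 (0.122%). Among genes with a window it was in 6 of 1104 that fell (0.543%) and in 2 of 1179 that rose (0.17%). Most of those that fell are the list members named next, so that contrast is largely the list counted again. The holders in the list were Calr, Canx, Creld2, Dnajc3, Hsp90b1, Hspa5, Pdia6 and Syvn1, of which Calr, Creld2, Hsp90b1, Hspa5 and Syvn1 fell. The windows of 4 of them are given in the direction of the gene, up to the first annotated transcript start (GENCODE vM21), with the element in capitals. In Calr and Creld2 it stands on the opposite strand, and Hsp90b1 has it once on each.
Calr, chr8:84846935-84847181, minus strand: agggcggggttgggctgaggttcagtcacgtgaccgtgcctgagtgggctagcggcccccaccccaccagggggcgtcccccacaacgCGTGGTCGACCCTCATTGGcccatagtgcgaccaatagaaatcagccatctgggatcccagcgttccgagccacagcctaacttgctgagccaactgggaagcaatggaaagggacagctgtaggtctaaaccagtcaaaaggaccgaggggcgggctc
Creld2, chr15:88819396-88819645, plus strand: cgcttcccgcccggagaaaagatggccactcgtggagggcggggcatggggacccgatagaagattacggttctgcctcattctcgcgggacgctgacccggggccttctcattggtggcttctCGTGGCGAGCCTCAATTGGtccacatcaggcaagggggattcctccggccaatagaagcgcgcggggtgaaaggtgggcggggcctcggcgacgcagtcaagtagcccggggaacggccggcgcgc
Syvn1, chr19:6046326-6046575, plus strand: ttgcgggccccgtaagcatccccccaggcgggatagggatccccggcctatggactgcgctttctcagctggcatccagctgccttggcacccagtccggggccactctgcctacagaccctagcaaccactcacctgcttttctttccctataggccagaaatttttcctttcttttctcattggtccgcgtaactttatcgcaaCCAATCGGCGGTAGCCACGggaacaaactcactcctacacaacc
Hsp90b1, chr10:86705510-86705694, minus strand: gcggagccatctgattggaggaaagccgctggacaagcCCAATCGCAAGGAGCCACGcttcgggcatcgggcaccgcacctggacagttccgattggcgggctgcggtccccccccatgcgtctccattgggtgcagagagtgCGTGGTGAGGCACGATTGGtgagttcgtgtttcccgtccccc

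The 4 windows shown are all of genes named above as falling, so their falls are no result about the element. Canx, Dnajc3 and Pdia6 also hold the element and neither rose nor fell. Calr, a calcium-binding chaperone, fell from 20596 and 21670.2 to 16152 and 14629 (log2 -0.46, adjusted p = 0.0224). Creld2, a folding enzyme, fell from 1501 and 2011 to 919 and 882 (log2 -0.95, adjusted p = 0.0122). Syvn1, the ligase that marks misfolded proteins for disposal, fell from 964 and 1323 to 601 and 596 (log2 -0.92, adjusted p = 0.0183). Hsp90b1, the HSP90 of the endoplasmic reticulum and the one with the element on both strands, fell from 9408 and 9249 to 6244 and 7346 (log2 -0.46, adjusted p = 0.0324), about as far as Calr. The calls of Calr and Hsp90b1 were lost without rescaling, after quantile normalization, without the trend and with any 1 of 3 libraries left out (morula library 2 and both blastocyst libraries). A match of letters is a description and was not tested as a site.

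Heat shock chaperone genes, cytosolic and mitochondrial, had 7 falls and 2 rises among 21 tested (33.3% and 9.52%, against 11.5% and 11.8% of all genes). Their median log2 change of -0.21 was 0.01 without rescaling. Hsp90ab1, which encodes the constitutive HSP90 of the cytosol, fell from 163643 and 171531 to 107830.0 and 103286 (log2 -0.67 ± 0.10, adjusted p = 0.0058). Its cochaperone gene Stip1 fell from 32476 and 40117 to 16581 and 15444 (log2 -1.17, adjusted p = 0.00271), and Dnaja1, which hands clients to HSP70, fell from 42494 and 49319.6 to 21185 and 22698 (log2 -1.06, adjusted p = 0.00255). The constitutive HSP70 gene Hspa8 fell from 98028 and 146018 to 57714 and 68381 (adjusted p = 0.0158). In these 4 genes each blastocyst library was below each morula library. Hspd1, the mitochondrial chaperonin, went the other way, from 9168 and 8772 to 12229.6 and 12955 (adjusted p = 0.0171). Falls and rises numbered 5 and 0 without blastocyst library 1, 3 and 0 without blastocyst library 2, and 0 and 0 without the mean-variance trend.

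The inducible pair Hspa1a and Hspa1b lie next to each other on chromosome 17 and are near-identical, so reads can be split between them. Hspa1a fell from 103 and 358 to 11.2 and 13.5 (log2 -3.86 ± 0.63, adjusted p = 0.00826), and Hspa1b fell from 449 and 1147 to 187 and 126 (log2 -2.22 ± 0.44, adjusted p = 0.0146). For both, morula library 2 was higher than morula library 1 by more than 2-fold. Their promoters are shown as an example of the duplication. Capitals mark GAANNTTC, the letters of paired heat shock factor binding units, which were in 5 of 16 windows of the list (31.2%) and in 4.96% of windows of the genes tested.
Hspa1a, chr17:34972157-34972406, minus strand: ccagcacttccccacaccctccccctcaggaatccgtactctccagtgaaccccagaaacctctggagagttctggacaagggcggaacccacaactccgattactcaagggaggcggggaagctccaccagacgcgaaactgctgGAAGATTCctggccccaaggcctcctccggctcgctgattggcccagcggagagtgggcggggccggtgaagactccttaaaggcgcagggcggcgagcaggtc
Hspa1b, chr17:34959239-34959488, minus strand: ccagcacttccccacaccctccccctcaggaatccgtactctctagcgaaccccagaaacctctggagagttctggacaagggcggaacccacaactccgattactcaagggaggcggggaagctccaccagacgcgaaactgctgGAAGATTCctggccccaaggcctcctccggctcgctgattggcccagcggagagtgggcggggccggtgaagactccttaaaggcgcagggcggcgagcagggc

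Genes of the p53 response and apoptosis had 11 falls and 2 rises among 29 tested (median log2 -0.43). These were 37.9% and 6.90%, against 11.5% and 11.8% of all genes. Cdkn1a, the p21 brake on the cell cycle, fell from 3138 and 8879 to 1277 and 1577 (log2 -1.89 ± 0.42, adjusted p = 0.0212). Its level in morula library 2 was over 2 times that in morula library 1, and both exceeded the blastocyst libraries. Bbc3, which encodes the death protein PUMA, fell from 751 and 1366 to 400.5 and 429.6 (adjusted p = 0.0202), Trp53inp1 fell from 3124 and 4455 to 1842 and 2026 (adjusted p = 0.0133), and the death receptor gene Tnfrsf10b fell from 1047 and 1329 to 654 and 583 (adjusted p = 0.014). Fewer of the list fell without morula library 2 or without either blastocyst library, as was so over all genes. Leaving out 1 library moved the median log2 change of the list between -0.62 and -0.23. Without rescaling 6 of the list fell.

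**Figure D4:**
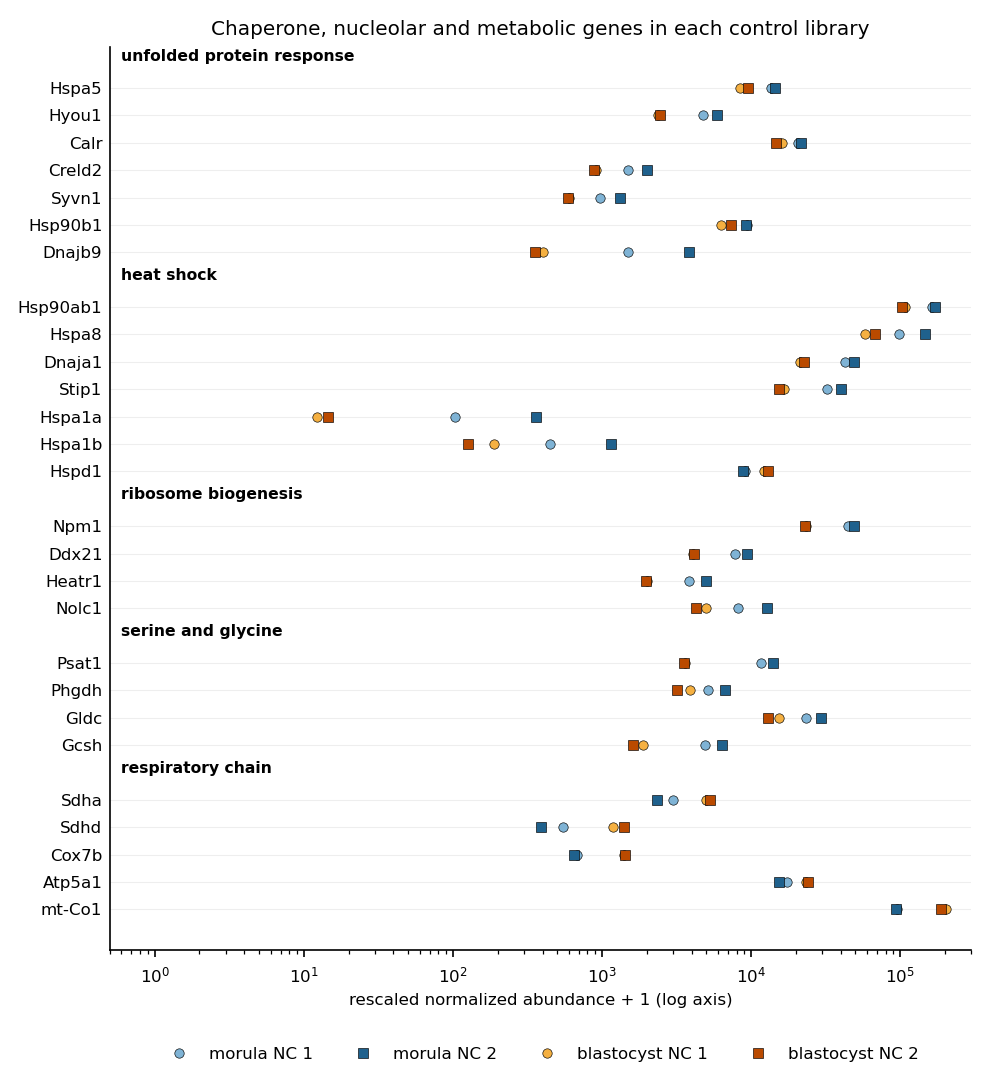
Rescaled normalized abundance + 1 on a log axis for chaperone, nucleolar and metabolic genes (rows), with 1 point per library, blue for morulae and orange for blastocysts, circles for library 1 and squares for library 2. Except for Hspd1 and the respiratory chain genes, which are higher in blastocysts, both blastocyst points lie left of both morula points in every row.

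Ribosome biogenesis gave the largest count of falls of any list, and the largest share among lists with at least 10 tested members. Of 41 tested nucleolar genes 21 fell (51.2%, against 11.5% of all genes) and 0 rose (median log2 -0.47). The shares that fell were larger in the small two-cell-stage and homeobox lists (75% and 60%). Npm1, the abundant nucleolar phosphoprotein, fell from 44891 and 48841 to 23368 and 23129, with means of 46866 ± 2793 in morulae and 23248 ± 169 in blastocysts (SD, n = 2) and a log2 change of -1.01 ± 0.10 (adjusted p = 0.00215). The helicase gene Ddx21 fell from 7786 and 9406 to 4055 and 4148 (log2 -1.06, adjusted p = 0.00358). Heatr1, needed for rRNA transcription and processing, fell from 3840.5 and 5010.0 to 2002 and 1982 (log2 -1.14, adjusted p = 0.00489), and Nolc1, a nucleolar phosphoprotein, fell from 8216 and 12743 to 5024 and 4266 (adjusted p = 0.011). The libraries of the stages were apart by close to 2-fold in these 4 genes. Ribosomal protein genes had 5 falls and 2 rises among 88 (5.68% and 2.27%, against 11.5% and 11.8% of all genes). Their median of -0.13 was 0.09 without rescaling and 0.04 after quantile normalization (the difference between the lists was not tested). Falls among them numbered 12 without morula library 1, 1 without morula library 2 and 0 when either blastocyst library was left out. Nucleolar falls numbered 12 without rescaling, 15 without morula library 2, 8 without blastocyst library 1 and 4 without blastocyst library 2, and 0 without the mean-variance trend.

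The serine and glycine pathway, which feeds nucleotide and methyl group synthesis, fell in part. Of 20 tested genes of serine, one-carbon and amino acid supply 7 fell and 0 rose (median log2 -0.52). Psat1, the aminotransferase of serine synthesis, fell from 11697 and 14081 to 3632 and 3554 (log2 -1.84 ± 0.13, adjusted p = 0.0016), and Phgdh, which opens that pathway, fell from 5131 and 6653 to 3927 and 3173 (adjusted p = 0.0233). Subunits of the glycine cleavage system fell too, Gldc from 23338 and 29487 to 15523 and 12928 (adjusted p = 0.0087) and Gcsh from 4885 and 6409 to 1884 and 1617 (log2 -1.68, adjusted p = 0.00216). Leaving out blastocyst library 2 left 2 falls, and leaving out either morula library 2 or blastocyst library 1 left 4.

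Energy metabolism genes changed in both directions. Of 26 glycolysis and pyruvate genes 9 rose and 4 fell (34.6% and 15.4%, against 11.8% and 11.5% of all genes, median log2 0.38). The hexokinase genes went in opposite directions, Hk2 rising from 2402 and 2085 to 6983 and 7510.3 (log2 1.69 ± 0.13, adjusted p = 0.0016) and Hk1 falling from 2796 and 4672 to 1286 and 924 (log2 -1.73 ± 0.27, adjusted p = 0.0068). For both genes the means of the stages were farther apart than the libraries of a stage. Pgk1, a glycolytic kinase that makes ATP, rose from 800.3 and 666 to 1553 and 1705 (adjusted p = 0.00556). Both subunits of the mitochondrial pyruvate carrier fell, Mpc1 from 1356 and 1644 to 722 and 721 (adjusted p = 0.00689) and Mpc2 from 923 and 1278 to 477 and 493 (adjusted p = 0.00975). The counts of rises and falls were 2 and 1 without blastocyst library 2 and 2 and 2 with library 1 left out.

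Nuclear genes of oxidative phosphorylation had 22 rises and 0 falls among 50 tested (median log2 0.45). The succinate dehydrogenase genes Sdhd and Sdha rose from 550.0 and 389 to 1182 and 1408 (adjusted p = 0.00606) and from 2978 and 2350.1 to 5002 and 5297 (adjusted p = 0.00655). Cox7b, of cytochrome oxidase, rose from 678 and 648 to 1397 and 1424 (adjusted p = 0.005), and Atp5a1, of ATP synthase, rose from 17338 and 15334 to 23289 and 24138 (adjusted p = 0.0143). Both libraries of each stage were close together in Cox7b and Atp5a1. The count of rises fell to 6 without blastocyst library 1 and to 0 without blastocyst library 2, with 14 without morula library 2 and 37 without rescaling and 0 without the mean-variance trend. Of the 13 genes of the mitochondrial genome 2 rose and 2 fell (15.4% each, against 11.8% and 11.5% of all genes). Their median of -0.14 was 0.08 without rescaling and 0.15 after quantile normalization. The oxidase subunits mt-Co1 (from 95527 and 93384 to 202552 and 189182, adjusted p = 0.00181) and mt-Co3 (from 18692 and 19054 to 37695 and 36511, adjusted p = 0.00215) rose about 2-fold, while mt-Cytb fell from 50551 and 59343 to 42724 and 37087 (adjusted p = 0.0371). In this list 7 genes fell without morula library 1 (median -0.38), 1 without morula library 2 (median 0.09) and 0 when either blastocyst library was left out.

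Lysosomal genes had 10 falls and 3 rises among 24 (41.7% and 12.5%, against 11.5% and 11.8% of all genes, median log2 -0.27). The cathepsin genes Ctsz and Ctsa fell from 2864 and 4964 to 1294 and 749 (adjusted p = 0.00865) and from 14132 and 18398 to 8558 and 5912 (adjusted p = 0.00905), the membrane protein gene Lamp2 fell from 4043 and 7603 to 1983 and 1442 (adjusted p = 0.00932), and the progranulin gene Grn fell from 12537 and 16043 to 7049 and 4693 (adjusted p = 0.00767). Tfeb, the transcription factor that activates lysosomal genes, went the other way, from 1080.5 and 751 to 2839.8 and 2951 (log2 1.68 ± 0.19, adjusted p = 0.00299). Falls numbered 7 with blastocyst library 1 left out and 3 with library 2 left out. Of 25 cholesterol genes 0 rose and 1, the sterol oxidase gene Msmo1, fell (from 1463 and 1275 to 913 and 829, adjusted p = 0.026). That list rested on which morula library was kept, since 14 rose and 1 fell with morula library 1 left out, against 1 and 3 with morula library 2 left out.

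Most cell cycle genes were not called. Of 41 replication genes 3 rose and 7 fell (7.32% and 17.1%, against 11.8% and 11.5% of all genes). Of 29 mitosis genes 3 rose and 4 fell (10.3% and 13.8%). Ccne1, the cyclin of S phase entry, fell furthest in these lists, from 3089.9 and 3699 to 1314 and 825 (log2 -1.70 ± 0.23, adjusted p = 0.00487). Espl1, the separase that parts sister chromatids, fell from 4255 and 5081 to 2651 and 2732 (adjusted p = 0.00859), and Cdk1, the kinase of mitotic entry, fell from 3376 and 4787 to 2284 and 2544 (adjusted p = 0.0277). The centromere gene Cenpf rose from 857 and 914 to 1513 and 2082 (adjusted p = 0.0118). Without rescaling 7 replication genes rose and 1 fell. The falls without blastocyst library 2 were 1 for replication and 0 for mitosis.

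Many genes of the DNA methylation machinery rose. Global methylation is lowest around the blastocyst stage and is then restored by the DNMT3 enzymes. Of 18 tested 10 rose and 0 fell (median log2 0.76). Dnmt3b, a de novo methyltransferase, rose from 1834 and 2088 to 4318 and 5076 (log2 1.26 ± 0.14, adjusted p = 0.00286), and its cofactor gene Dnmt3l rose from 1132 and 1254 to 2129 and 2033 (adjusted p = 0.00909). Uhrf1, which brings DNMT1 to replicated DNA, rose from 3286 and 2750.2 to 6041 and 5833 (adjusted p = 0.00457). Zfp57, which protects imprints, rose from 444 and 295 to 1451 and 1645 (log2 2.09, adjusted p = 0.00271), and Tdg, the glycosylase that removes oxidised methylcytosine, rose from 411 and 200.4 to 1614 and 1659 (log2 2.51, adjusted p = 0.00418). The libraries of the stages were well apart in all 5. Without blastocyst library 2, 4 of the list rose, against 5 with library 1 left out and 0 without the mean-variance trend.

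Smarca5 fell between the stages, as did some of its partners. SMARCA5, also called SNF2H, is the ATPase of ISWI remodelers, which space nucleosomes. In control embryos Smarca5 at chr8:80698507-80739497 fell from 10300.2 and 10606 to 6443 and 7645, means of 10453 ± 216 in morulae and 7044 ± 851 in blastocysts (SD, n = 2), a log2 change of -0.57 ± 0.12 (adjusted p = 0.0172). Of 12 tested genes of the ATPase and its partners 5 fell and 0 rose (median log2 -0.37). Baz2a, the partner in the nucleolar complex NoRC, fell from 11264 and 11836 to 7521 and 7921 (adjusted p = 0.0103), the histone-binding subunit gene Rbbp4 fell from 5931 and 6309.6 to 4337 and 4026 (adjusted p = 0.0158), and Baz1a, of the ACF complex, fell from 7353 and 6834 to 5599 and 5264 (adjusted p = 0.0448). The call of Smarca5 was lost without rescaling, without the trend and without either blastocyst library, and its adjusted p over all settings ran from 0.00751 to 0.131. Without rescaling 1 gene of the list fell and 1 rose, and without either blastocyst library 0 did.

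Imprinted genes, expressed from 1 parental copy, had 4 rises and 3 falls among 20 (20% and 15%, against 11.8% and 11.5% of all genes). Their median log2 change of -0.27 was -0.05 without rescaling. Sfmbt2 and Slc38a4, paternally expressed genes of the placenta, rose from 537 and 628 to 1712 and 1708 (adjusted p = 0.00226) and from 1239 and 1268 to 3191 and 3601 (adjusted p = 0.00181). The growth factor gene Igf2 rose from 142 and 88.6 to 440.5 and 509 (log2 2.07, adjusted p = 0.00604) and its clearance receptor gene Igf2r fell from 12365 and 19389 to 7138 and 6175 (log2 -1.22, adjusted p = 0.00902). Among hatching and invasion proteases 5 rose and 3 fell of 15 (33.3% and 20%, against 11.8% and 11.5% of all genes). The plasminogen activators went apart, Plat rising from 76.6 and 46.7 to 359 and 236 (adjusted p = 0.00891) and Plau falling from 425 and 333 to 56.1 and 111 (adjusted p = 0.00917). With blastocyst library 2 left out, rises and falls were 2 and 0 among imprinted genes and 2 and 1 among proteases. None of 6 tested X inactivation genes was called.

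The largest changes outside these lists named further genes. Among the 12 largest rises with a blastocyst mean of at least 100, Adh1 (chr3:138260991-138290698), an alcohol dehydrogenase that acts on retinol, went from 94.2 and 4.39 to 4118 and 3960.2 (log2 7.48 ± 1.12, adjusted p = 0.0065). The peptide transporter gene Slc15a2 (chr16:36750177-36784962) rose from 23.2 and 10.4 to 543 and 1096 (log2 5.54, adjusted p = 0.00181). A pair of related small-protein genes that lie near each other on the X chromosome, Tceal9 (chrX:136245079-136247139) and Bex3 (chrX:136270253-136271978), rose together. Tceal9 went from 34.5 and 10.3 to 640.1 and 937 and Bex3 from 52.1 and 18.9 to 721 and 1068. The remaining rises of this set were Lurap1l (from 58.2 and 8.98 to 512 and 684) and the glycosyltransferase gene B3gnt7 (from 18.8 and 26.5 to 423 and 723), besides Sox17, Fgf10, Gata2, Lgals1, Lama1 and Peg10.

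Among the 12 largest falls, Foxe1 (chr4:46343609-46346412), a forkhead factor gene known from thyroid development, fell from 890.3 and 1972 to 33.7 and 35.9, 41.1-fold between means (log2 -5.21 ± 0.39, adjusted p = 0.0016). Other developmental regulators of the set were the homeobox gene Uncx (from 135 and 249 to 16.9 and 6.52) and the DM-domain gene Dmrtb1 (from 357 and 736 to 41.5 and 23.7). Duxbl2 fell from 242 and 349.8 to 3.71 and 19.3, but it is 1 of several near-identical copies. Membrane genes made up much of the rest, with the transporter gene Abcc3 (from 340.1 and 905 to 38.8 and 19.5), the potassium channel gene Kcnh3 (from 98.7 and 389.6 to 15.0 and 8.98), the calcium channel gene Cacna1h (from 202 and 225 to 9.51 and 18.8), Tmem56 (from 447 and 1387 to 58.9 and 20.4) and Lhfpl5 (from 95.0 and 159 to 16.1 and 2.99). The cytokine gene Tnfsf13b fell from 223 and 209 to 20.8 and 10.5, and Obox6 and Hspa1a complete the set. Adjusted p lay between 0.0016 and 0.0152 over these 24 genes, and for most of those that fell morula library 2 was the higher of the morula libraries.

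Genes that reached the mean of 10 in only 1 table were left out of the test, so they are given as values. On the blastocyst side the highest were the protease gene Tmprss2 (9.87 and 1.12 in morulae and 418 and 938 in blastocysts), the membrane repair gene Myof (14.3 and 0 in morulae and 355 and 474 in blastocysts), Enpp1 (7.76 and 9.7 in morulae and 256 and 473 in blastocysts), the forkhead gene Foxd3, a factor of the epiblast (5.91 and 1.12 in morulae and 214 and 462 in blastocysts), and Ccdc42 (15.0 and 2.69 in morulae and 238 and 344 in blastocysts). On the morula side they were Tcam1 (156 and 306 in morulae and 6.78 and 3.14 in blastocysts), Abcb5 (96.5 and 313 in morulae and 2.95 and 4.94 in blastocysts), the immune regulator gene Ciita (86.0 and 240.4 in morulae and 1.25 and 2.24 in blastocysts), Iqub (162 and 147 in morulae and 11.2 and 0.748 in blastocysts) and Entpd3 (79.0 and 214 in morulae and 7.49 and 1.5 in blastocysts). These 10 were chosen for a high mean at 1 stage and a mean under 10 in the other table. The libraries of the stages were apart in all 10, which follows largely from that choice. Placental Plac1 also passed in the blastocyst table only, at 5.42 and 2.07 in morulae and 36.8 and 60.8 in blastocysts.

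The same stage step in Snf2h KD embryos was set beside that of the controls. The KD and NC comparisons share no library but do share the authors' 2 tables. Of the 3009 genes that changed in controls, 2968 (98.6%) moved in the same direction in KD embryos. The 3009 were chosen by their change in controls, and the same share over all genes tested was not computed. The part of the shared tables in this was not tested. Over all genes tested the KD and NC stage changes correlated at r = 0.775, a description across genes that are not independent. The difference between the stage changes, tested in 1 limma fit of all 8 libraries, called 0 of 12875 genes (0%), with 678 at an unadjusted p under 0.05 and a lowest adjusted p of 0.177. This does not show that the changes were equal. Sox17, for example, stood at 199 and 78.2 in KD morulae and 819 and 1775 in KD blastocysts, a log2 change of 3.26 against 7.72 in controls (difference -4.46 ± 1.60, adjusted p = 0.912). Amotl1, which fell in controls, stood at 115 and 193 and 131 and 142 in KD embryos (adjusted p of the difference 0.666). Krt8, Krt18 and Cdx2 changed by 2.08, 2.53 and 1.24 in KD embryos and by 1.47, 1.81 and 1.13 in controls (log2).

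**Figure D5:**
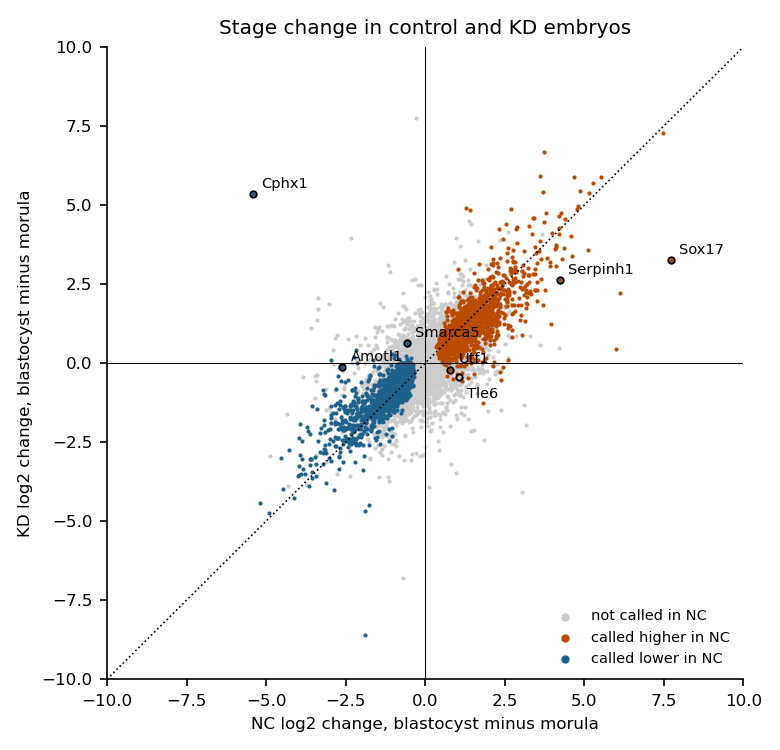
Log2 stage change in KD embryos (vertical) against that in NC embryos (horizontal) for the 12875 genes tested, coloured by the call in NC embryos, with the dotted line marking equal change. Most coloured points lie in the lower left and upper right of the plot, and circles mark Smarca5, Utf1, Tle6, Cphx1, Sox17, Amotl1 and Serpinh1.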

How the data were processed

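The authors deposited normalized abundance per gene, 1 table for each stage, used here as a signal with no depth of its own. The tools named for it are Salmon 0.14.1 and DESeq2 and the build is mm10, per the submitters' processing notes, which give them no role or order here. Low values were not whole multiples of 1 read (9.28% to 23.9% within 0.01), so no count test was run. From values of genes seen in a single library, depth was estimated at 13958300 to 23304900 reads in the 4 libraries, and errors come from the spread of the 2 libraries.

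Genes with a mean of at least 10 in both tables were kept, 99.0% with a symbol. Columns were divided by median-of-ratios factors (0.940, 0.920, 1.09 and 1.08) and tested as log2(value + 1) in limma 3.58.1 (R 4.3.3; lmFit, eBayes with trend) with Benjamini-Hochberg adjustment at 0.05. The fit was tested on simulated data. Alternatives varied scaling, pseudocount, filter, trend, fit, pairing and the library left out.

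The members, the 36 gene lists and the rule for named genes were chosen with earlier results of these data known. Named were fixed lineage genes, the 12 largest changes in each direction with a mean of at least 100 in the higher stage, up to 5 members per list by p, and the highest genes passing in 1 table. Aqp3, Dab2, Fgf4, Calr, Syvn1, Hsp90b1, Hspa8, Hspd1, Phgdh, Nolc1, Atp5a1 and the low genes given from 1 table were added after their values were seen. Coordinates are from GENCODE vM21 and promoter sequences from RefSeq (GRCm38.p6).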

Additional observations from a re-analysis of the deposited data

Results flagged for a closer look

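In 4 named genes the NC and KD libraries moved in opposite directions between the stages, with every blastocyst library above every morula library in 1 group and below it in the other. How many of the 12875 genes tested do so was not counted, and lack of overlap is common with 2 libraries a stage. The difference was tested in the fit of all 8 libraries and passed the threshold for none of the 4. Values are rescaled over the 8 libraries. Smarca5, the gene named in the KD label, went from 10270.5 and 10531 to 6431 and 7617 in NC embryos and from 535 and 506 to 831 and 792 in KD embryos, a difference in log2 stage change of 1.21 ± 0.16 (SE, adjusted p = 0.202). Utf1, a chromatin factor gene of pluripotent cells, went from 1267 and 1338 to 2343 and 2168 in NC and from 1805 and 1741 to 1405 and 1667 in KD embryos, a difference of -1.003 ± 0.17 (adjusted p = 0.56). For Tle6, of the maternal complex, the NC values were 67.8 and 71.5 in morulae and 220.2 and 96.1 in blastocysts. The KD values were 206 and 132.6 in morulae and 132.0 and 111 in blastocysts, so the KD stages were barely apart. The difference for Tle6 was -1.50 ± 0.59 (adjusted p = 0.912). For Cphx1 the values were 86.7 and 20.0 and 0 and 0 in NC and 0 and 2.31 and 89.7 and 58.6 in KD embryos, a difference of 10.76 ± 1.30 (adjusted p = 0.177). Its neighbouring copy Cphx3 was at 303 and 939.8 and 179 and 113 in NC and 209 and 721 and 0 and 0 in KD embryos, so only Cphx1 was above 0 in KD blastocysts and only Cphx3 in NC blastocysts. Reads can be split between these copies, and a fitted difference against values of 0 depends on the 1 added before the log.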

How the results depend on the processing

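Stage and table, and any gene-wise scaling within a table, cannot be told apart here, and with 2 libraries a group a lone library left after removal is assumed to vary like the other stage. Without rescaling 2553 genes rose and 898 fell, and without the mean-variance trend 164 and 77. Leaving out 1 library gave 293 to 2109 rises and 376 to 1981 falls. A replicate block gave 1579 rises and 1524 falls, and the deviations of same-numbered libraries correlated at -0.06 between the stages, so the numbers were taken as names. It ended the call of 2 of 178 called named genes, and the cause was not tested. The other alternatives stayed within 1.5 times of the main counts.

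The test of a different stage change in KD embryos called 1 gene without the mean-variance trend and 0 to 2 genes with 1 of the 8 libraries left out (1 without NC blastocyst library 1 and 2 without library 2), and 0 in every other setting run. Of the 178 named genes that were called, 28 kept the call without the trend, 155 without rescaling, 176 without morula library 1, 156 without morula library 2, 120 without blastocyst library 1 and 95 without blastocyst library 2. Called genes had no overlap between the stages, so leaving out a library could hardly turn their sign. The sign turned only in named genes that were not called, and the cause was not tested. Without rescaling these were Tead4 (0.17), Gata6 (0.019), Suz12 (0.058), Lrpprc (0.064), Star (0.16) and Fgf4 (0.19), with equal sums Tead4 (0.061), Star (0.049) and Fgf4 (0.080), and after quantile normalization Tead4 (0.052), Suz12 (0.0010) and Lrpprc (0.00018). With 1 library left out the ranges were -0.64 to 0.045 for Klf4, -0.61 to 0.085 for Esrrb, -0.086 to 0.15 for Crxos, -0.32 to 2.51 for Inhbb, -0.15 to 0.043 for Star and -0.35 to 0.28 for Fgf4.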
